A study of Mus musculus with 6 samples.

Results

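The 10 genes described here are clade B serpins of the mouse: Serpinb1a, Serpinb1b, Serpinb1c, Serpinb2, Serpinb5, Serpinb6a, Serpinb6b, Serpinb9, Serpinb10 and Serpinb12. They were taken by symbol, 10 of the 51810 genes in the deposited table of the series, and the family was picked because Serpinb1c differed between the genotypes. Of the 28 symbols in that table that begin with Serpinb, the other 18 are given below as the rest of the family. The 6 poly(A) RNA libraries came from mTEChi, the mature medullary epithelial cells of the thymus, sorted from mice aged 4 to 5 weeks at 75000 cells per sample after enrichment for the epithelial protein EpCAM. The WT group (3 libraries) is titled P53-NoCre and has the genotype P53-WT in the labels, and the cKO group (3 libraries) has the genotype P53-cKO, a conditional knockout of p53, the transcription factor encoded by Trp53. The labels name neither the Cre driver nor the cells in which it acts, and do not say whether the WT mice carried a conditional allele or whether each library came from its own animal. The p-values therefore measure the spread between these libraries, which may be technical.

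Serpins are protein inhibitors that hold out a flexible reactive centre loop as bait. A target protease cuts the loop, stays bound to the serpin and is carried with it into a dead complex. Clade B serpins lack a classical secretion signal and work mostly inside cells, where several protect the cell from its own or from incoming proteases. Serpinb1a, Serpinb1b and Serpinb1c are the mouse relatives of human SERPINB1, an inhibitor of neutrophil elastase, cathepsin G and proteinase 3. Serpinb9 inhibits granzyme B, Serpinb6b inhibits granzyme A, Serpinb6a inhibits cathepsin G, and Serpinb2 (plasminogen activator inhibitor type 2) inhibits the urokinase Plau. Serpinb12 inhibits trypsin-like proteases in epithelia, Serpinb10 (bomapin) is best known from blood cells, and Serpinb5 (maspin) is an epithelial serpin that does not inhibit proteases by the classical mechanism and has been described as a target of p53.

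The 3 Serpinb1 genes are shown by the coding sequence of the reactive centre loop, where they are less alike than elsewhere, because reads from such close copies can only be told apart where the copies differ. In the 3 lines that follow, in GRCm38 and in the sense of the gene, capitals mark the codons taken here as the loop. Lower case marks the conserved codons on either side, by which its edges were set. Each stretch lies within a single coding exon.
Serpinb1a, chr13:32842884-32842970, minus strand: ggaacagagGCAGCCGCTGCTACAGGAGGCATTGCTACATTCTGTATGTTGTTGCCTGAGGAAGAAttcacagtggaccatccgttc
Serpinb1b, chr13:33093773-33093868, plus strand: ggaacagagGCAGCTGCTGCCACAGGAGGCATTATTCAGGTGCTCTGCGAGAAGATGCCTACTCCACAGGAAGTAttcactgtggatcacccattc
Serpinb1c, chr13:32881899-32881982, minus strand: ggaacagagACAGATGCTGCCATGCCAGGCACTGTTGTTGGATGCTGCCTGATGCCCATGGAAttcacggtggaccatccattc
The loop held 57 bases in Serpinb1a, 66 in Serpinb1b and 54 in Serpinb1c. Over the whole coding sequence Serpinb1a and Serpinb1b were identical at 90.6% of aligned bases, Serpinb1a and Serpinb1c at 89.7%, and Serpinb1b and Serpinb1c at 87.7%. Within the loop, identity was 75.4% between Serpinb1a and Serpinb1b, against 91.4% in the rest of the coding sequence. Between Serpinb1a and Serpinb1c it was 33 of 50 aligned bases in the loop, against 90.8% in the rest, and between Serpinb1b and Serpinb1c 68.5% against 88.7%. In all 3 pairs the stretch taken as the loop was thus less alike than the rest of the coding sequence. Its edges were set at conserved codons, which leaves alike bases out and lowers its identity.

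Between close copies, how many reads can be assigned depends on read length, which is not given in the sources used here. Of all 25-base words in the annotated transcripts of Serpinb1c, 16.5% also occurred in a transcript of another gene, most often Serpinb1a. At 50 bases the share was 6.28%, and at 100 bases it was 0. For Serpinb1a the shares were 14.8% and 2.81% at 25 and 50 bases, and for Serpinb1b 11.4% and 3.09%, each with 0 at 100 bases. Reads with several alignments were left out of the counts, per the file headers, so the Serpinb1 values rest on the parts of each gene that are unlike its copies. Serpinb5 and Serpinb12 shared no word of 25 bases with any other gene.

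Total counts lay between 45457892 and 50128045 per library, so a floor of 3 counts lay between 0.0598 and 0.0660 CPM. CPM is the count of a gene relative to the total of its library. These floors cover counting error only. Trp53 itself, the check of the labels, was read at 4837 to 5351 counts per library in WT and at 361 to 386 in cKO. The mature medullary markers were abundant in every library, with Cd74 and H2-Aa the highest of 12, and their summed level ranged from 34072 to 37738 CPM in WT and from 34432 to 37006 CPM in cKO. Of the 12, 8 had a log2 fold change below 0, and 2 were lower in cKO with no overlap, Aire (1305 ± 108 CPM in WT and 1046 ± 195 in cKO, SD, n = 3 each) and Fezf2 (453 ± 40.8 and 404 ± 3.06 CPM), both transcription factors of medullary cells that did not pass the adjusted threshold by edgeR. Of all genes tested, 49.0% had a log2 fold change above 0. With no overlap, 7.28% of all genes were lower in cKO and 7.14% higher. In bulk RNA, fewer cells of a type and less RNA per cell cannot be told apart. None of the 10 serpin genes was lost to the filter on low counts.

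The 10 genes spanned about 2 orders of magnitude in level, with Serpinb1a far above the rest. Levels between genes are compared here in TPM, the deposited unit, in which counts are divided by gene length and rescaled to the same sum in every library. Averaged over the 6 libraries, Serpinb1a stood at 835 TPM, Serpinb9 at 305, Serpinb2 at 294, Serpinb12 at 170, Serpinb6b at 169, Serpinb6a at 128, Serpinb1c at 61.1, Serpinb10 at 29.6, Serpinb1b at 11.8 and Serpinb5 at 8.66 TPM. In 7 of the 9 neighbouring pairs of this order the same gene was higher in 6 of 6 libraries, for which a two-sided exact sign-flip permutation test gave p = 0.0312, the smallest that 6 libraries can give, and 0.0402 after Benjamini-Hochberg adjustment over the 9 pairs. The order was set from these same 6 libraries, so the p-values describe it and are no independent test of it. Pairs with Serpinb1c also hold the gene whose difference chose the family. The level of Serpinb1a was 2.69-fold that of Serpinb9, and Serpinb10 stood 2.52-fold above Serpinb1b. Of the exon bases of Serpinb2, 12.4% overlap Serpinb10, and reads there were counted for both, so the level of Serpinb10 may hold reads of Serpinb2. Serpinb9 and Serpinb2 were not separated (higher in 4 of 6 libraries, exact permutation p = 0.312, adjusted 0.352), and neither were Serpinb12 and Serpinb6b (4 of 6, exact permutation p = 0.969). In both pairs the first-named gene was higher in every WT library, and the libraries with the other order were all cKO. In the WT libraries taken alone, the ranges of 5 of the 9 pairs did not overlap.

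**Figure D1:**
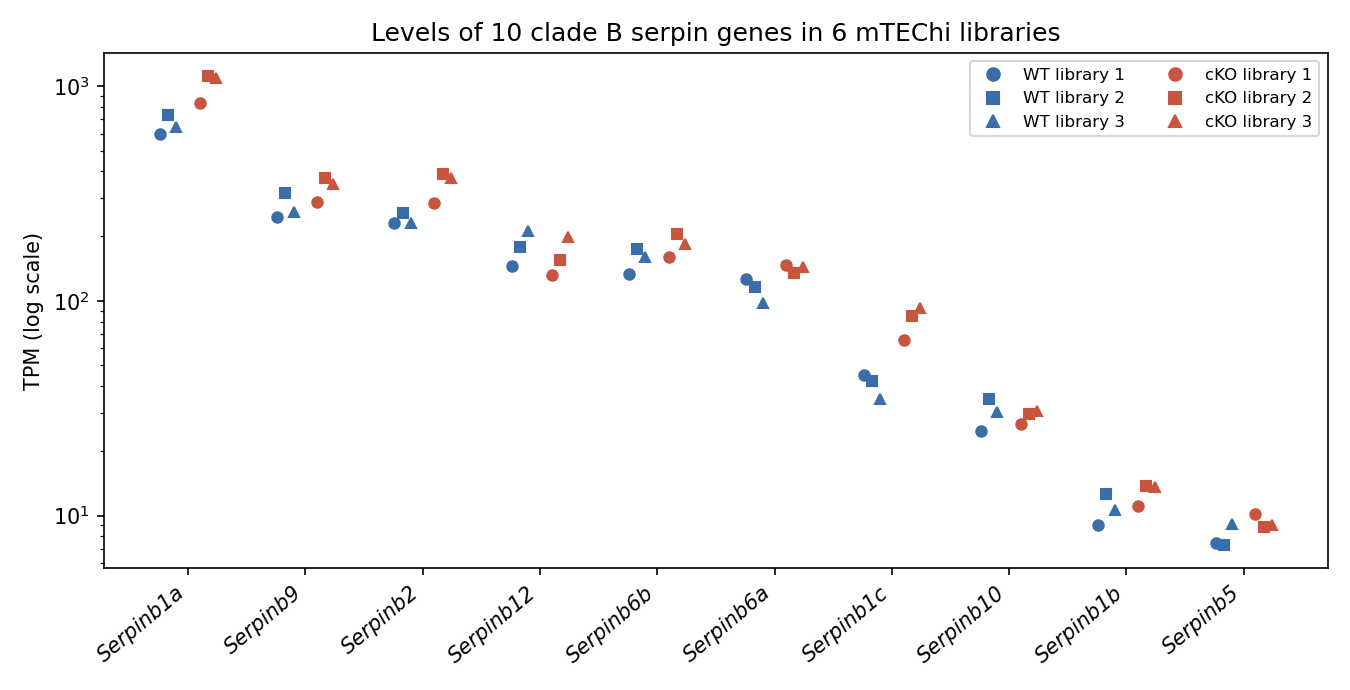
Level of each gene in TPM (log axis) in each of the 6 libraries, ordered by the mean over all libraries, with WT in blue and cKO in red. Serpinb1a lies highest (835 TPM on average) and Serpinb5 lowest (8.66 TPM), and the cKO points of Serpinb1a, Serpinb2, Serpinb6a and Serpinb1c all lie above their WT points.

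The 3 Serpinb1 genes lie in 1 cluster on chromosome 13. Serpinb1c (ENSMUSG00000079049, chr13:32881434-32898211, minus strand) had 45.3, 42.2 and 35.0 TPM in WT libraries 1, 2 and 3, and 66.0, 84.9 and 93.1 TPM in the cKO libraries in the same order. All 3 cKO libraries were above all 3 WT libraries, with cKO library 1 the lowest of the cKO group. The raw counts behind these levels were 1469, 1482 and 1247 in WT and 2212, 2743 and 3385 in cKO. On the scale of TMM-scaled CPM, used for every comparison between genotypes, Serpinb1c stood at 29.5 ± 3.52 in WT and 58.0 ± 10.5 in cKO (SD, n = 3 each), a log2 fold change of 0.97 with a standard error (SE) of 0.136, or 1.96-fold. This difference chose the family and is given as a description, with no test.

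Serpinb1a (ENSMUSG00000044734, chr13:32842092-32851185, minus strand), the most abundant of the copies, had 599, 730 and 646 TPM in WT and 833, 1108 and 1094 TPM in cKO. The groups did not overlap, and cKO library 1 was again the lowest of the cKO group. In CPM, Serpinb1a stood at 673 ± 85.8 in WT and 1016 ± 161 in cKO (SD, n = 3 each). Its log2 fold change was 0.59 (SE 0.121, 1.51-fold), with an adjusted p of 0.167 by the quasi-likelihood test of edgeR over all genes tested, so it did not pass the threshold of 0.05. By the Wald test of DESeq2 the adjusted p was 0.00242. With edgeR it was 0.00763 with no filter on low counts and 0.0336 without cKO library 1, so Serpinb1a passed in some settings and not in others.

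Serpinb1b (ENSMUSG00000051029, chr13:33078575-33094380, plus strand), the scarcest copy, had 9.002, 12.7 and 10.6 TPM in WT and 11.1, 13.8 and 13.6 TPM in cKO, and the groups overlapped. Its log2 fold change was 0.23 (SE 0.167, edgeR adjusted p 0.758). Of the summed TPM of the 3 copies, Serpinb1a took 91.1% to 93.4% in every library and Serpinb1b 1.13% to 1.61%. The share of Serpinb1c was 6.94%, 5.38% and 5.06% in WT and 7.26%, 7.04% and 7.75% in cKO, so it was slightly larger in each cKO library, a description that uses the same difference as the choice of the family. Of the summed TPM of all 10 genes, the Serpinb1 copies made up 41.0% to 42.0% in WT and 46.5% to 48.2% in cKO.

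**Figure D2:**
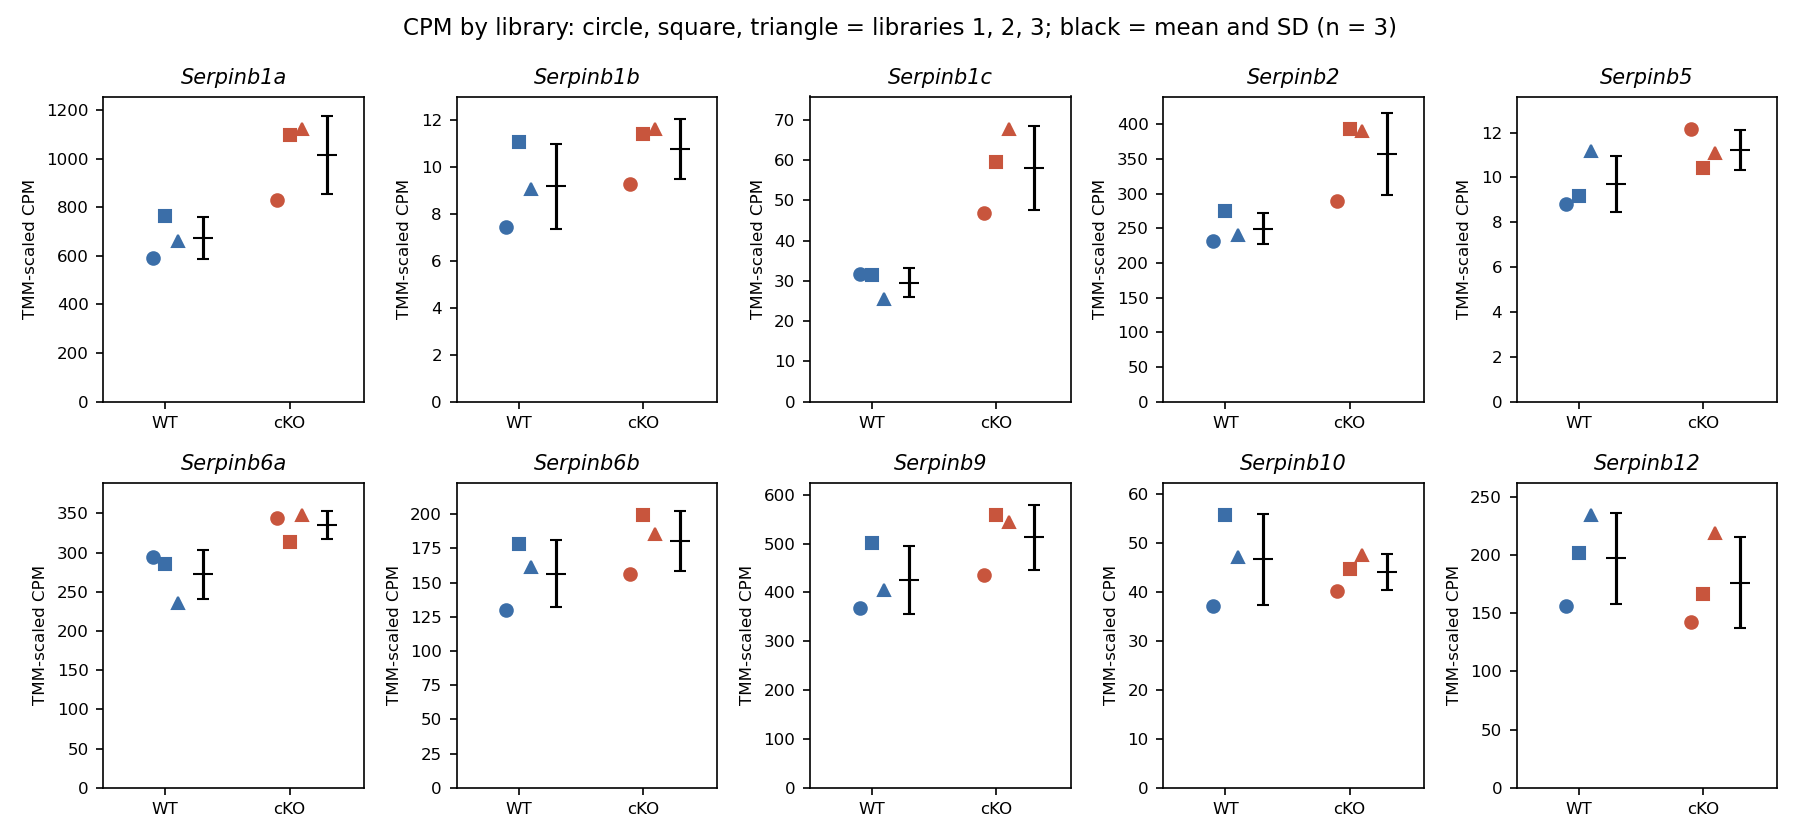
TMM-scaled CPM of each gene by library (circle, square and triangle for libraries 1, 2 and 3), with black bars for the mean and SD of 3 libraries, each panel on its own axis from 0. WT and cKO do not overlap for Serpinb1a, Serpinb1c, Serpinb2 and Serpinb6a, and overlap in the other 6 panels.

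Across the 10 genes, only Serpinb1c was past the adjusted threshold, which is how it was chosen, beside 0.0596% of all 28543 genes tested. The call of Serpinb1c itself was kept in 8 of 15 alternatives and lost in 7: by limma-voom, without robust estimation, and without any 1 of WT libraries 1, 2 and 3 or cKO libraries 2 and 3. By direction, 0.0245% of all genes were called higher in cKO and 0.0350% lower. None of the other 9 passed it by edgeR, or by limma-voom, which called 0.0175% of all genes. DESeq2 called 2 of them, Serpinb1a and Serpinb2, beside 0.652% of all genes. At an unadjusted p under 0.05 there were 4 of the 9 (Serpinb1a, Serpinb2, Serpinb6a and Serpinb9), beside 8.51% of all genes tested. The groups did not overlap for 3 of the 9, all higher in cKO (Serpinb1a, Serpinb2 and Serpinb6a), beside 7.14% of all genes in that direction and 7.28% in the other (14.4% in both). Of the 9, 7 had a log2 fold change above 0, beside 49.0% of all genes, and their median was 0.23, beside -0.01 for all genes tested. The genes were chosen with these differences known, so the counts describe them and do not test the family.

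Serpinb9, Serpinb6a and Serpinb6b, which act on granule proteases of lymphocytes and myeloid cells, were all detected at 98.0 TPM or more in every library. Serpinb9 (ENSMUSG00000045827, chr13:33003250-33017957, plus strand) had 245, 316 and 260 TPM in WT and 288, 372 and 350 TPM in cKO. The groups overlapped, since WT library 2 was above cKO library 1. In CPM it stood at 425 ± 69.1 in WT and 513 ± 66.3 in cKO (SD, n = 3 each), a log2 fold change of 0.27 (SE 0.122, edgeR adjusted p 0.586).

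Serpinb6a (ENSMUSG00000060147, chr13:33917918-34002794, minus strand) had 127, 116 and 98.0 TPM in WT and 147, 135 and 144 TPM in cKO. The groups did not overlap, although WT library 1 and cKO library 2 lay close together. In CPM it stood at 272 ± 31.5 in WT and 335 ± 18.4 in cKO (SD, n = 3 each), a log2 fold change of 0.30 (SE 0.0923, edgeR adjusted p 0.389). Its exons overlap those of 3 genes on the opposite strand, Nqo2 over 14.1% of its exon bases, 1110046J04Rik over 10.8% and Ripk1 over 4.46%. Strand was ignored in the counting, per the file headers, so reads in those parts were counted for both genes of a pair and cannot be told apart.

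Serpinb6b (ENSMUSG00000042842, chr13:32965209-32979067, plus strand) had 134, 173 and 160 TPM in WT and 159, 205 and 184 TPM in cKO. The groups overlapped, with cKO library 1 inside the WT range, and the fitted log2 fold change was 0.20 (SE 0.120, edgeR adjusted p 0.696).

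The other 4 genes lie in the second clade B cluster, on chromosome 1. Serpinb2 (ENSMUSG00000062345, chr1:107511423-107535478, plus strand) had 230, 257 and 230 TPM in WT and 284, 389 and 373 TPM in cKO. All cKO libraries were above all WT libraries, and cKO library 1 lay closer to the WT group than to the other cKO libraries. In CPM it stood at 249 ± 22.5 in WT and 357 ± 58.9 in cKO (SD, n = 3 each). Its log2 fold change was 0.52 (SE 0.115, 1.43-fold), with an edgeR adjusted p of 0.203. DESeq2 gave an adjusted p of 0.0103. With edgeR it was 0.00230 with no filter on low counts and 0.0327 without cKO library 1.

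Serpinb10 (ENSMUSG00000092572, chr1:107529003-107549271, plus strand) overlaps the end of Serpinb2 on the same strand. It had 24.8, 35.1 and 30.4 TPM in WT and 26.6, 29.8 and 30.6 TPM in cKO, with the cKO range inside the WT range. Its log2 fold change was -0.08 (SE 0.133, edgeR adjusted p 0.917), and without WT library 2 it was 0.06. The overlap covers 291 exon bases, 12.4% of those of Serpinb2 and 8.34% of those of Serpinb10, and reads there were counted for both genes, per the file headers. Serpinb2 had 10730 to 19502 counts per library and Serpinb10 1717 to 2634, so the same number of shared reads is a larger part of the count of Serpinb10. How many reads fell in the overlap was not tested, so the level and fold change of Serpinb10 may be in part those of shared reads.

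Serpinb12 (ENSMUSG00000059956, chr1:106934449-106957080, plus strand) had 146, 178 and 210 TPM in WT and 132, 155 and 197 TPM in cKO. The groups overlapped, and the spread within each was wider than the gap between their means. The log2 fold change was -0.16 (SE 0.188, edgeR adjusted p 0.874). Serpinb5 (ENSMUSG00000067006, chr1:106861173-106883348, plus strand), the lowest of the 10, had 7.46, 7.32 and 9.11 TPM in WT and 10.2, 8.81 and 9.06 TPM in cKO. The groups overlapped, and the log2 fold change was 0.21 (SE 0.144, edgeR adjusted p 0.743).

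**Figure D3:**
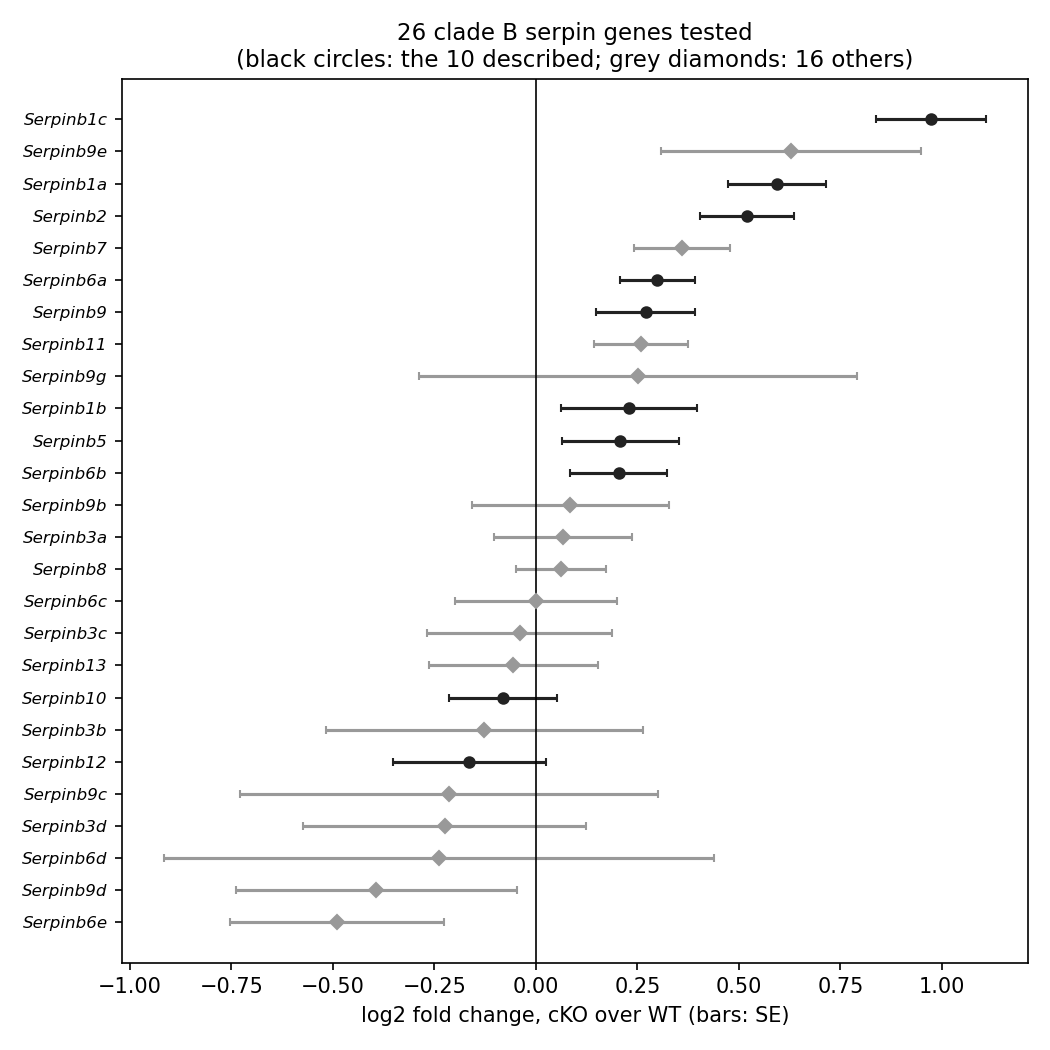
Log2 fold change of cKO over WT for the 26 clade B genes tested, with SE as bars, black circles for the 10 described and grey diamonds for 16 others. Serpinb1c (0.97), Serpinb9e (0.63), Serpinb1a (0.59) and Serpinb2 (0.52) lie highest and Serpinb6e (-0.49) lowest, and the scarce genes have the widest bars.

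A promoter window of Serpinb2 is shown because this gene lies beside Serpinb10, which did not have its pattern, and because this window held 3 of the motifs searched. It runs over the 250 bases before the first RefSeq start of Serpinb2 in GRCm38.p6, with the matches in capitals.
Serpinb2, chr1:107511173-107511422, plus strand: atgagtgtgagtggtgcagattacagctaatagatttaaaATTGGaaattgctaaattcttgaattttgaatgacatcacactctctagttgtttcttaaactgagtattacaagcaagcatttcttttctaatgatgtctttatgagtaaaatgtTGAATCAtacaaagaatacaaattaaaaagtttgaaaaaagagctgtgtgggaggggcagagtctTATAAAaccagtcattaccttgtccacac
The TATA box letters TATAAA began 29 bases before the start. A match to the letters TGANTCA (N is any base), here TGAATCA, began 94 bases before it, and the letters CCAAT, on the minus strand, 210 bases before it. From a later RefSeq start of Serpinb2, TATAAA began 116 bases and TGANTCA 181 bases before it, with no match to CCAAT. RefSeq windows of 250 bases before to 50 bases after the start were found for 9 of the 10 genes (not Serpinb1a), in 13 entries. Searched on both strands, TATAAA occurred in a window of Serpinb1c, Serpinb2 and Serpinb12, beside 13.6% of 32851 mouse promoters of the same length. The letters TGANTCA occurred in windows of Serpinb2, Serpinb5, Serpinb10 and Serpinb12, all on chromosome 1, beside 7.81% of promoters. CCAAT occurred in windows of Serpinb1b, Serpinb2, Serpinb5 and Serpinb6a, beside 37.4%. The p53 half-site was in none of the 13 windows, beside 8.36% of promoters, and neither was the kappaB site, beside 4.51%. These are matches of letters in a short window and say nothing on binding.

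The rest of the clade stood on both sides of 0, at averages of no more than 35.4 TPM. Of the 17 other clade B genes listed, 16 were tested, none passed the adjusted threshold by edgeR, DESeq2 or limma-voom, and 2 had an unadjusted p under 0.05 by edgeR, Serpinb7 and Serpinb11, beside 8.51% of all genes. Of the 16, 8 had a log2 fold change above 0 and 8 below 0, with a median of -0.02. Serpinb7 (chr1:107399655-107452689), an epithelial serpin, was the highest of them in level and had the smallest p, with 30.4, 31.0 and 30.9 TPM in WT and 34.8, 39.5 and 45.9 TPM in cKO. Its groups did not overlap, and its log2 fold change was 0.36 (SE 0.118, edgeR adjusted p 0.420). Serpinb9e, named after its values were seen, was the other gene whose groups did not overlap among those tested, at 0.835 to 1.21 TPM in WT and 1.28 to 1.68 TPM in cKO (log2 fold change 0.63, SE 0.320, edgeR adjusted p 0.637). Serpinb9f, at 7 to 17 counts per library, did not pass the filter on low counts. Neither did Serpinb9h, at 2 to 11 counts, which was not on the list and was added after the table was read.

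By position, the chromosome 1 cluster held 12 clade B genes over 749 kb, with a median log2 fold change of 0.01 and 6 of 12 above 0. The chromosome 13 cluster held 15 listed genes over 1161 kb, of which 14 were tested, with a median of 0.22 and 10 of 14 above 0, beside 49.0% of all genes tested. It held 6 of the 10 genes described, and the chromosome 1 cluster 4. The chromosome 13 median and count include Serpinb1c, which chose the family, and other genes chosen with their differences known. Among the tested genes, the groups did not overlap for 4 on chromosome 13 (Serpinb1c, which chose the family, Serpinb1a, Serpinb6a and Serpinb9e) and for 2 on chromosome 1 (Serpinb2 and Serpinb7), all higher in cKO, beside 7.14% of all genes in that direction. The untested Serpinb9f was lower in every cKO library than in every WT library. Within both clusters, genes with differences above 0 lay beside genes near or below 0. Serpinb2 and Serpinb10, whose exons overlap, were such neighbours on chromosome 1, and Serpinb9e and Serpinb9d on chromosome 13. Serpinb9e (edgeR adjusted p 0.637) and Serpinb9d (log2 fold change -0.39, SE 0.346, edgeR adjusted p 0.815) were both scarce and were named after their values were seen. No difference between the clusters was tested.

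**Figure D4:**
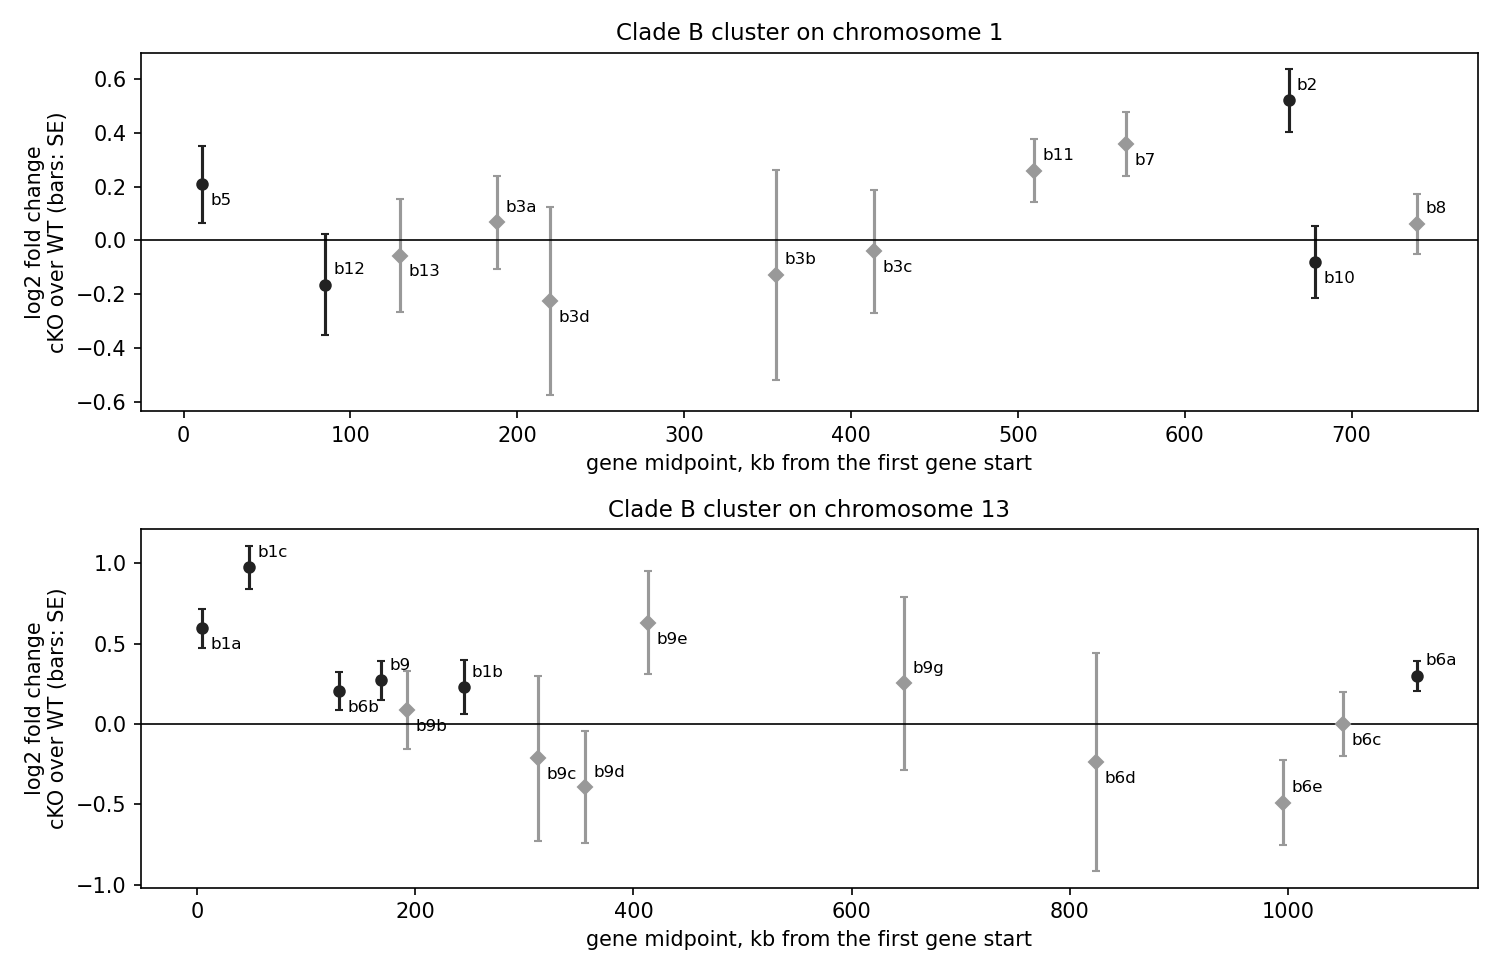
Log2 fold change of cKO over WT (bars, SE) against the gene midpoint in kb from the first gene start of each cluster, with labels that drop the shared prefix Serpin, black for the 10 described and grey for the others. Serpinb1a and Serpinb1c stand together at the left end of the chromosome 13 cluster, and Serpinb2 stands above its neighbour Serpinb10 in the chromosome 1 cluster.

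The proteases that these serpins are known to bind, their relatives and the inflammatory caspases were read from the same fit. Of 27 listed, 25 were tested, none passed the adjusted threshold by edgeR, DESeq2 or limma-voom, and 6 had an unadjusted p under 0.05 by edgeR, beside 8.51% of all genes. Of the 25, 15 had a log2 fold change above 0 and 10 below 0, with a median of 0.06. Ctss, the cathepsin that trims the invariant chain of class II MHC, was the most abundant, at 336 ± 84.7 TPM in WT and 411 ± 45.8 in cKO (SD, n = 3 each; log2 fold change 0.26, SE 0.185, edgeR adjusted p 0.760). Tmprss2, a transmembrane serine protease of epithelia, had the smallest p, at 27.3 ± 3.72 TPM in WT and 35.7 ± 3.85 in cKO (SD, n = 3 each; log2 fold change 0.37, SE 0.0996, edgeR adjusted p 0.310). Its groups did not overlap.

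The direct partners were chosen for naming by their role and not by the rule used for the rest of the list. Among the targets of SERPINB1, Elane (neutrophil elastase) had 3 to 8 counts per library, at or just above the floor, and was not tested. Ctsg (cathepsin G) had 2.93, 3.56 and 5.06 TPM in WT and 0.94, 2.15 and 2.74 TPM in cKO. Its counts were 60, 79 and 114 in WT and 20, 44 and 63 in cKO. The groups of Ctsg did not overlap, and its log2 fold change was -1.003 (SE 0.390, edgeR adjusted p 0.511). Among the 25 proteases tested, groups did not overlap for 4 higher and 2 lower in cKO, beside 7.14% and 7.28% of all genes. Prtn3 (proteinase 3) stood at 3.01 ± 1.22 TPM in WT and 2.06 ± 0.559 in cKO (SD, n = 3 each), and its groups overlapped. Gzma, the target of Serpinb6b, stood at 5.16 ± 1.74 TPM in WT and 4.16 ± 0.921 in cKO (SD, n = 3 each), and its groups overlapped. The granzyme Gzmb, the target of Serpinb9, stood at 20.6 ± 3.86 TPM in WT and 21.6 ± 3.07 in cKO (SD, n = 3 each; log2 fold change 0.04, edgeR adjusted p 0.971), and Plau, the target of Serpinb2, at 47.7 ± 2.55 TPM in WT and 45.6 ± 5.18 in cKO (SD, n = 3 each; log2 fold change -0.09, edgeR adjusted p 0.875). Serpinb1a, Serpinb9 and Serpinb2 were thus each at a higher TPM than these named partners in every library. These are RNA levels of the sorted cells, and the amounts of protein were not measured.

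Other cell types of the gate, and the mimetic cells (medullary cells that take on the programmes of peripheral tissues), were followed by their markers, since clade B serpins are expressed in several of them. No marker gene of any list passed the adjusted threshold by edgeR, and none was at 0 in every library. Neutrophil markers, led by S100a8 and S100a9, summed to 347 to 427 CPM in WT and 284 to 474 in cKO, with 2 of 9 tested above 0 in log2 fold change. Of all genes tested, 49.0% were above 0. Myeloid markers, of which Lyz2 and Csf1r were the highest, summed to 541 to 737 CPM in WT and 650 to 945 in cKO, with 5 of 10 above 0. Lyz2 was by far the largest part of these sums, at 529 ± 85.7 CPM in WT and 667 ± 144 in cKO (SD, n = 3 each), and its own groups overlapped. Cytotoxic lymphocyte markers (Gzmb and Eomes highest) summed to 29.4 to 37.0 CPM in WT and 27.6 to 35.0 in cKO, with 3 of 6 tested above 0, and thymocyte markers (Rag1 and Cd4 highest) to 90.3 to 158 and 94.0 to 147 CPM, with 1 of 10 above 0. In all 4 of these lists the sums of the groups overlapped.

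Among the mimetic lists, microfold markers, led by Marcksl1 and Spib, were above 0 in 9 of 10, beside 49.0% of all genes tested. Their median log2 fold change was 0.32. Their groups did not overlap for 4 genes, all higher in cKO, beside 7.14% of all genes tested in that direction and 7.28% in the other. Their sums were 2379 to 2766 CPM in WT and 2751 to 3019 in cKO. Enterocyte markers (Apoa4 and Muc13 highest) were above 0 in 9 of 10, with a median of 0.21, sums of 841 to 1080 and 1033 to 1187 CPM, and 2 genes higher in cKO with no overlap. Keratinocyte markers (Dsg1a and Krt10 highest) were above 0 in 10 of 12, with a median of 0.13, sums of 870 to 923 and 922 to 1039 CPM, and no overlap for 2 genes higher in cKO (Dmkn and Sbsn) and 1 lower (Lor, log2 fold change -0.50, SE 0.145). Goblet and secretory markers (Bpifa1 and Tff3 highest) were above 0 in 5 of 10, with a median of 0.06 and sums of 287 to 348 and 350 to 426 CPM. Only in this list of the 4 did the sums not overlap between groups, and by a narrow gap. Bpifa1 was the largest part of these sums, at 174 ± 30.3 CPM in WT and 245 ± 62.6 in cKO (SD, n = 3 each), and its own groups overlapped. In that list Agr2 was higher and Muc2 (log2 fold change -0.67, SE 0.1499) lower in cKO with no overlap. The part of these levels in the serpin differences was not tested.

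Across the 6 libraries, the pattern of Serpinb1c in log2 CPM was closest to that of Serpinb2 (Pearson r 0.93) and Serpinb1a (r 0.92) among the other 9 genes, and farthest from that of Serpinb10 (r -0.08) and Serpinb12 (r -0.21). The 5 genes closest to it among 22020 with a mean of at least 1 CPM were Rp2, Pld4, Ern1, Phip and 4930528J11Rik, with r from 0.987 to 0.992. All 5 were higher in each cKO library than in each WT library, by log2 fold changes from 0.13 to 0.40, and none of them passed the adjusted threshold by edgeR (adjusted p from 0.231 to 0.739). With 6 points in 2 groups that share the split by genotype, such values describe likeness only.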

How the data were processed

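The deposited count files hold raw counts of reads per gene, and the deposited table of the series repeats these counts and adds TPM, as computed by the authors. The submitters' processing notes list TopHat2 2.1.1, SAMtools 1.9 and Subread 2.0.1, with mm10 as the build. Per the file headers, featureCounts 2.0.0 summed exons by gene on Ensembl release 99 (GRCm38), ignored strand, counted a read for each gene it overlaps, and left out reads with several alignments. Counts were equal in both sources for all 51810 genes of the series table. Of the 55385 genes in the count files, 3575 were not in that table. The deposited TPM was recomputed from the counts of the table to within 0.000834% for values over 1. A further column of the table matched no sample and was not used (1 column). The table's symbol column fixed the members.

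Counts were tested with edgeR 4.0.16 in R 4.3.3 (TMM scaling, filterByExpr, robust quasi-likelihood F test), with Benjamini-Hochberg adjustment over 28543 genes and a threshold of 0.05. SE was obtained from the log2 fold change and the F statistic (their ratio, with F under a square root). Log2 CPM used a prior count of 2. TPM ratios of neighbouring genes used a pseudocount of 0.01. DESeq2 1.42.0, limma-voom (limma 3.58.1), other scalings, filters, a fit without robust estimation, a replicate block and each library left out were alternatives. The fits were tested on simulated data. Members, gene lists and tests were chosen with earlier results of these data known. Named beyond the members were, per list, genes past the threshold, else the highest in mean TPM and the one with the smallest p. For markers these were the 2 highest in mean CPM, and the 5 genes most like Serpinb1c were added. Other genes were named by role, by position or after their values were seen. Among the last were Aire, Fezf2, Dmkn, Sbsn, Lor, Agr2 and Muc2, whose groups did not overlap, and Serpinb11, for its unadjusted p. Coding sequence and 25-, 50- and 100-base words came from GENCODE M21 transcripts on GRCm38, and promoters from RefSeq.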

Additional observations from a re-analysis of the deposited data

How the results depend on the processing

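The log2 fold change of Serpinb1c was above 0 in 15 of 15 alternatives, from 0.85 without cKO library 3 to 1.11 without cKO library 1, but it was past the adjusted threshold in 8 of the 15. This difference chose the family, and its groups did not overlap, so its sign could hardly change and is no test. Of the other 9 genes, 8 kept their sign in 15 of 15, and Serpinb10 was 0.06 without WT library 2. Against 17 genes called in all (7 higher, 10 lower in cKO), 160 were called with no filter on low counts (108 higher, 52 lower), 186 by DESeq2 (137 higher, 49 lower), 5 by limma-voom and 6 without robust estimation, all 11 of the last 2 sets of calls lower in cKO. Leaving out 1 library gave 6 to 16 calls, with 6 without WT library 3 and 7 without WT library 1 or cKO library 2. Of the 9 genes other than Serpinb1c, 0 were called, but Serpinb1a and Serpinb2 (2 genes) were called with no filter and by DESeq2, and 0 to 2 with 1 library left out, the 2 without cKO library 1. Adjusted p ranged from 8.52e-04 to 0.692 for Serpinb1a and from 0.00230 to 0.773 for Serpinb2 over the alternatives. Of the serpins outside clade B, 1 (Serpina7) was called with no filter and by DESeq2. No other clade B gene and no protease was called under any alternative. The order of levels had 7 separated pairs of 9, and 6 to 7 with 1 library left out. The causes of these changes were not tested. Counting error limits Serpinb9f, Serpinb9h and Elane, which lay near the floor.

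A fit that took the replicate number as a block called 203 genes (138 higher, 65 lower in cKO), among them 2 of the 9 genes, Serpinb1a (adjusted p 8.52e-04) and Serpinb2 (0.00481), and 1 serpin outside clade B, Serpina7. The labels tie the numbers to no shared litter, batch or day. Deviations of same-numbered libraries from their group means correlated at r = 0.113, 0.0544 and 0.0755 over 28543 genes for numbers 1, 2 and 3, so the numbers were not taken to pair the libraries. Every library correlated best with its own number, a hint from the data and not from the design.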

Other observations

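The serpins of other clades, most of them secreted inhibitors of blood plasma and matrix, were read from the same fit as the clade B genes. Of 31 listed, 30 were tested, none passed the adjusted threshold by edgeR or limma-voom, 1 did by DESeq2, and 4 had an unadjusted p under 0.05 by edgeR, beside 8.51% of all genes. Of the 30, 18 had a log2 fold change above 0 and 12 below 0, with a median of 0.07. Serpina3g, an intracellular member of the antichymotrypsin group, was the most abundant, at 221 ± 35.2 TPM in WT and 207 ± 21.4 in cKO (SD, n = 3 each; log2 fold change -0.11, edgeR adjusted p 0.845). Serpina7, which encodes the thyroxine-binding globulin of plasma, had the smallest p, with 69.5, 74.0 and 49.96 TPM in WT and 87.2, 106.8 and 101.9 TPM in cKO. Its groups did not overlap, and its log2 fold change was 0.59 (SE 0.138, edgeR adjusted p 0.234), the same size as that of Serpinb1a.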
